A study of Mus musculus with 435 samples.

Results

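Cytosolic ribosomal protein genes were followed through the livers of 435 mice. They were chosen by symbol: every gene whose name starts with Rpl or Rps and a number, or with Rplp, except the S6 kinases (Rps6k), and for which a probe set was annotated to that gene alone. This gave 31 of the 13379 genes measured, 16 with a large-subunit (Rpl) name and 15 with a small-subunit (Rps) name, each read by 1 probe set. A further 14 probe sets, among them those of Rpl32, Rplp1 and Rps27, were annotated to several genes and were left out. Of the 31, Rps19bp1 encodes a protein that binds Rps19 and Rpl7l1 a relative of Rpl7 found in pre-ribosomes, so the symbol takes in genes whose products are not known as parts of the mature ribosome.

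The mice came from a cross of DBA/2J females with C57BL/6 males that carried 1 db allele, a loss of the leptin receptor. Carriers of the F1 generation were interbred, and all mice studied were F2 animals with both alleles lost (db/db), which eat to excess and become obese and diabetic. All ate chow, and livers were taken at 5 or 12 weeks of age. At 5 weeks 118 females and 101 males were sampled, at 12 weeks 110 and 106, with 1 Affymetrix array per mouse. No lean mice were compared here, each F2 mouse carries its own mix of the parental genomes, and the labels name no litters. Each mouse was taken as an independent animal. The values are log2 levels made by the authors with RMA, a method that brings arrays to a common distribution and combines probes, so a value says how a gene differed between mice and not how much of it there was beside another gene. In whole liver, fewer cells of a type and less RNA per cell cannot be told apart.

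A ribosome is built from ribosomal RNA and about equal amounts of each ribosomal protein, and the small subunit reads the messenger RNA while the large subunit joins amino acids. The genes are expressed in every cell, and liver, which makes most plasma proteins, has many ribosomes. In mammals their messenger RNAs start with a C followed by a run of C and T bases, the 5′ terminal oligopyrimidine (TOP) motif, through which insulin and nutrients acting on the kinase mTOR control how well they are translated. Some members have gene copies with tissue-specific use: Rpl22l1 is a copy of Rpl22, and in mice the Rpl22 protein is known to hold down Rpl22l1.

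Because this kind of start is described for the family, the 30 bases around the annotated start were read from RefSeq (GRCm38.p6) for the members on which the results below turn and for those with the run at the start itself. The start is base 16 of each line, read 5′ to 3′ on the gene's strand, and capitals mark an unbroken run of C and T that covers it.
Rpl27a, chr7:109519180-109519209, plus strand: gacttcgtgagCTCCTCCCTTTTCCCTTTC
Rpl35, chr2:39005117-39005146, minus strand: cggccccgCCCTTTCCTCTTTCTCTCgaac
Rps10, chr17:27635230-27635259, minus strand: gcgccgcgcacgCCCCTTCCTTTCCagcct
Rplp2, chr7:141447636-141447665, plus strand: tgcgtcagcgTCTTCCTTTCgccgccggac
Rps6, chr4:86857353-86857382, minus strand: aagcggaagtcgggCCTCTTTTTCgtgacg
Rps24, chr14:24490663-24490692, plus strand: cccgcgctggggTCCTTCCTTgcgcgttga
Rpl39, chrX:37085208-37085237, minus strand: cctaagctccgCCTCTagcgacttcttcta
Rpl22l1, chr3:28805493-28805522, plus strand: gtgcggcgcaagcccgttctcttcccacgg
Rpl22, chr4:152324421-152324450, plus strand: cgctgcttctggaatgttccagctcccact
Rpl13a, chr7:45128731-45128760, minus strand: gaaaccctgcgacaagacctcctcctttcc
Rps7, chr12:28635939-28635968, minus strand: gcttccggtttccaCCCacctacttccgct
Rps19, chr7:24884577-24884606, plus strand: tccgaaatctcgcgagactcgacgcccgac
Rps4x, chrX:102189377-102189406, minus strand: ctgaggctgggcggagcaacccaggctcca
Each window holds bases before the gene and the first bases of its 5′ UTR, and for Rpl22, Rps19 and Rps24 the most upstream of several annotated starts is shown. Runs that did not cover the annotated start, such as those after it in Rpl13a and Rpl22l1, were neither marked nor counted. Whether the annotated starts are those used in these livers was not tested, so a window without capitals does not show that a TOP start is lacking.

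A run of at least 5 such bases covered an annotated start in 7 of the 27 members in the table (25.9%) and in 11.8% of all 27025 genes in it. Bases on both sides of the start were counted, and the start base could be C or T. It was T in Rpl27a, Rps24 and Rpl39, and in Rpl39 it was the last base of the run. The count is therefore not a count of TOP starts. The letters CCGGAAG, sought on either strand in the 250 bases before the start, occurred in 10 of 27 members (37.0%) and in 7.83% of all genes, among them Rps7, where they begin 14 bases before the start, Rps6 at 91 bases and Rpl35 at 127 bases. The letters AAGATGGC, on either strand, occurred in 1 of 27 (Rpl22, 3.7% against 1.83% of genes). The letters TATAAA, on the gene's strand only, occurred in Rpl22l1, 28 bases before the start, and in Rpl39, which is 7.41% of members against 8.94% of genes. CCGGAAG and AAGATGGC can share the letters AAG, and a match describes the letters only. The age differences reported below of the 7 members with the run at the start lay between -0.10 (Rps24) and 0.015 (Rps6) in females and between -0.16 (Rps24) and -0.0041 (Rps6) in males, on the log2 scale.

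Between 5 and 12 weeks, Rpl22l1 fell 1.84-fold in females and 2.03-fold in males, and the other members that were called changed by less. Of the 31 members, 16 were lower and 4 higher at 12 weeks in females, and 16 lower and 2 higher in males (limma on all genes, Benjamini-Hochberg adjusted p under 0.05). Over all genes tested in females, 24.2% were called lower and 22.1% higher, and in males 24.0% lower and 22.3% higher. The median log2 difference over the members was -0.045 in females and -0.056 in males, against 0.0025 and -0.0043 over all genes, and 22 and 28 of the 31 values were below 0. Lower in both sexes were 14 members, 9 were called in neither sex, and Rpl22 and Rps19 were higher in both.

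**Figure D1:**
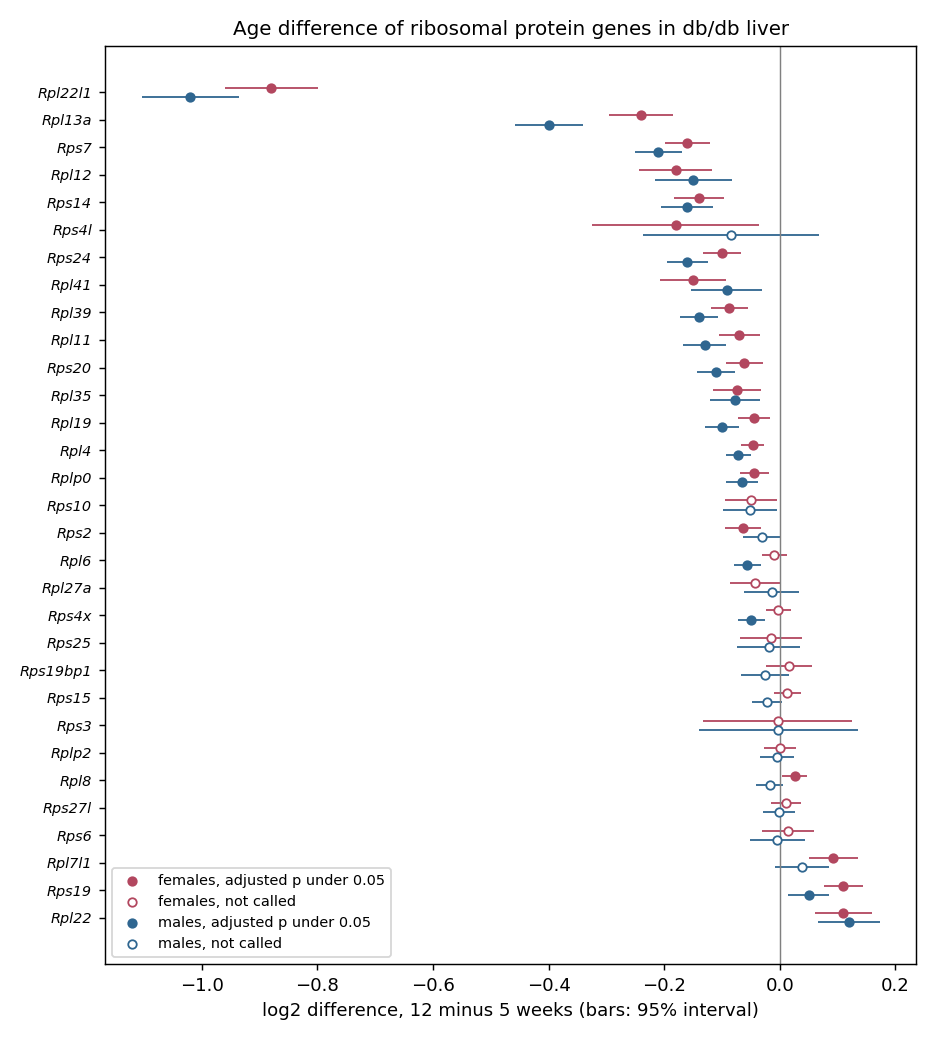
Log2 difference between 12 and 5 weeks for each of the 31 members in females (red) and males (blue); bars are 95% intervals of the limma fit, filled points are called at an adjusted p under 0.05. Rpl22l1 lies at -0.88 and -1.02, apart from all other members, and Rpl22 at 0.11 and 0.12 is at the other end.

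The large-subunit gene copy Rpl22l1 (Entrez 68028) had log2 levels from 9.84 to 11.52 with a median of 11.01 in 5-week females, and from 9.49 to 10.76 with a median of 10.12 in 12-week females. In males the range went from 9.93 to 11.75 (median 11.15) to 9.45 to 10.71 (median 10.07). The ranges overlapped, but all 110 females and all 106 males at 12 weeks lay below the 5-week median of their sex. The difference was -0.88 ± 0.041 (SE) in females, 1.84-fold, and -1.02 ± 0.043 in males, 2.03-fold (adjusted p = 8.76e-67 and 4.3e-76). Within batches 1 to 4 of the arrays it was -0.87, -1.03, -0.78 and -0.77 in females, and males had -1.11, -1.21, -0.83 and -0.95.

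Its partner Rpl22 (Entrez 19934) moved the other way and by far less. Its median was 8.77 (range 8.44 to 9.30) in 5-week females and 8.94 (8.31 to 9.39) in 12-week females, and 8.73 (8.42 to 9.23) and 8.88 (8.41 to 9.42) in males. The groups overlapped widely, and 27 of 110 females and 26 of 106 males at 12 weeks lay below the 5-week median. The rise was 0.11 ± 0.025 in females and 0.12 ± 0.027 in males (adjusted p = 7.08e-05 and 4.21e-05), and it had the same sign in batches 1 to 4, at 0.058 to 0.26 (females) and 0.091 to 0.15 (males).

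**Figure D2:**
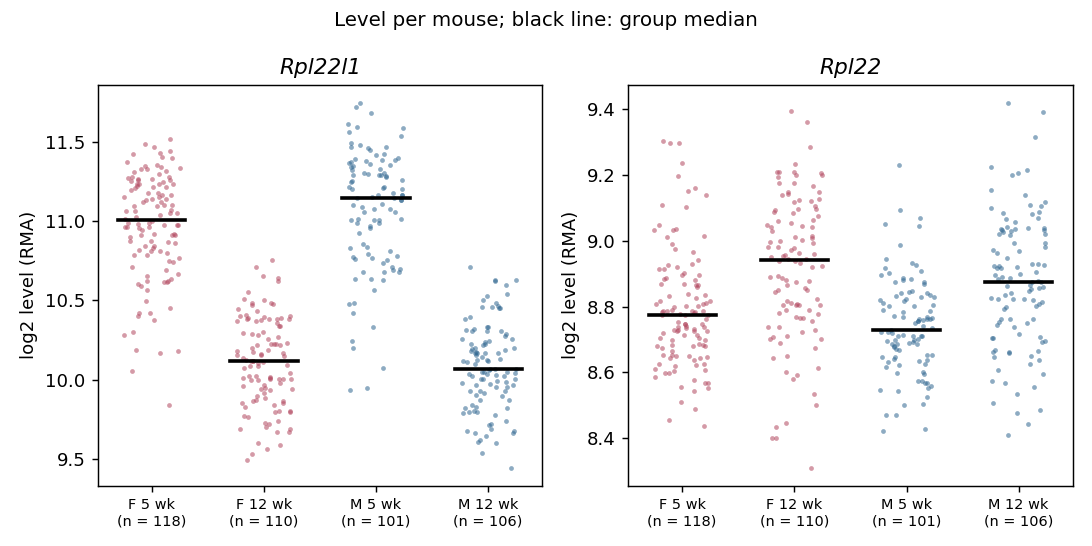
Log2 level of Rpl22l1 (left) and Rpl22 (right) in each mouse by sex and age; each point is a mouse and black lines are group medians. Rpl22l1 medians drop from 11.01 to 10.12 (females) and from 11.15 to 10.07 (males), while Rpl22 medians go up from 8.77 to 8.94 and from 8.73 to 8.88.

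Across mice of 1 group the levels of this pair were weakly related at 5 weeks, with a negative sign in females, and positively related at 12 weeks. With group and batch removed, their correlation over all 435 mice was 0.135, and it was -0.144 in 5-week females, 0.00156 in 5-week males, 0.458 in 12-week females and 0.215 in 12-week males. These are descriptions over mice that share batches and parental alleles.

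Rpl13a, a large-subunit protein that in inflammation can leave the ribosome and silence messenger RNAs, had the next largest fall. In 5-week females it lay between 8.62 and 9.86 with a median of 9.27 and in 12-week females between 8.57 and 9.71 with a median of 9.01. In males the median went from 9.44 (9.02 to 10.15) to 9.05 (8.49 to 9.71), and 41 of 106 males at 12 weeks lay below every 5-week male. The difference was -0.24 ± 0.028 in females and -0.40 ± 0.030 in males (adjusted p = 1.61e-15 and 8.8e-32). In females of batch 4 it was only -0.044, against -0.31, -0.30 and -0.30 in batches 1 to 3.

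Other large-subunit members fell by less. Rpl12, at the base of the stalk that binds elongation factors, fell by 0.18 in females and 0.15 in males, with medians of 5.47 and 5.30 in females and overlapping ranges. Rpl39 and Rpl41, very small proteins, fell by 0.087 and 0.15 in females and by 0.14 and 0.092 in males. Rpl11, which with the 5S RNA can bind Mdm2 and raise p53 when ribosome assembly fails, fell by 0.070 in females and 0.13 in males. Rpl4, Rpl19, Rpl35 and the stalk protein Rplp0 were lower in both sexes, at -0.044 to -0.10, and the stalk protein Rplp2 was called in neither sex. Rpl6 was called in males only (-0.056 ± 0.012), and Rpl8 (0.026 ± 0.011) and the pre-ribosome gene Rpl7l1 (0.093 ± 0.022) were higher in females.

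Among small-subunit members, Rps7 had the largest fall that was called in both sexes. Its median went from 11.75 (11.35 to 12.18) to 11.58 (11.20 to 12.00) in females and from 11.77 (11.49 to 12.07) to 11.57 (11.13 to 11.97) in males, with overlap of the groups in both sexes. The difference was -0.16 ± 0.020 and -0.21 ± 0.021 (adjusted p = 3.75e-13 and 2.38e-20). Rps14, which lines the decoding platform, fell by 0.14 and 0.16, Rps24 by 0.10 and 0.16, and Rps20 by 0.061 and 0.11. Rps2 fell in females (-0.064) and Rps4x in males (-0.049). Rps4l, a copy of Rps4x, fell in females by 0.18 ± 0.074 (adjusted p = 0.0358) and was not called in males (-0.084 ± 0.078). Its values in females of batches 1 to 4 were -0.038, -0.24, -0.36 and 0.025, and 63 of 110 females at 12 weeks lay below the 5-week median. The call was lost without batch 2 and without batch 3. The probe sets of Rps2, Rps7, Rps14, Rps20, Rps24 and Rps27l carry the maker's mark for probes shared with other transcripts and that of Rpl22 a mark for shared probes within a family, and ribosomal protein genes have many near-identical pseudogenes, so these values may hold signal of other copies.

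Rps19, a protein needed to mature the small subunit and the gene most often mutated in Diamond-Blackfan anaemia, rose with age. Its median was 11.14 (10.70 to 11.39) at 5 weeks and 11.26 (10.83 to 11.58) at 12 weeks in females, and 11.18 (10.92 to 11.53) and 11.23 (10.88 to 11.60) in males, with wide overlap. The rise was 0.11 ± 0.017 in females and 0.050 ± 0.018 in males (adjusted p = 4.02e-09 and 0.0132). Rps6, the substrate of the S6 kinases below mTOR, was not called: its age difference was 0.015 (95% interval -0.030 to 0.060) in females and -0.0041 (-0.051 to 0.043) in males. Its probe set was dim, with group medians between 4.16 and 4.19, and was 1 of 2 members, with Rpl35, in the lowest 25% of mean levels over all genes. Rpl12, Rpl41, Rps10 and Rps25 were low as well, with group medians from 4.71 to 5.61, and Rps3 had 5.93 to 6.01. Array medians lay between 5.56 and 5.70, and no detection calls were used. Whether the signal behind the falls of Rpl12 and Rpl41 and the spread of Rps3 given below lay over background is unknown.

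The age differences of females were not alike in all batches. The median over the members was -0.038, -0.072 and -0.052 in batches 1 to 3 and 0.028 in batch 4, where 12 of the 31 values were below 0 and 7 members were called higher and 5 lower. In males it was -0.056, -0.070, -0.053 and -0.085. The median and the share called over all genes within each batch are not given. These values can therefore not be set against a background. The codes that define the batches stand in the array names, no label says what they mark, and batches 1 to 4 each held mice of all 4 groups.

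The other lists of the translation machinery were called in both directions with age, and among mitochondrial ribosomal proteins lower calls were the more frequent in both sexes. Of 11 measured genes of elongation and other TOP messenger RNAs, 4 were higher and 2 lower in females and 0 higher and 4 lower in males. Here the poly(A)-binding protein Pabpc1 fell by 0.28 in females and 0.15 in males, and the elongation factor Eef2 rose by 0.049 in females. Of 23 initiation factors, 4 were higher and 7 lower in females and 6 higher and 7 lower in males, with Eif4a1 and Eif5a lower in both sexes and Eif5 higher in both. Of 70 genes of ribosome biogenesis, 13 were higher and 26 lower in females and 20 higher and 19 lower in males, with Utp20 at 0.61 in both and the RNA polymerase I subunit Polr1c at -0.19 and -0.22. Of 20 genes of mTOR signalling, 6 were higher in each sex and 3 and 5 lower, with Sesn2, which restrains mTOR, 0.27 and 0.34 higher. Of 71 mitochondrial ribosomal proteins, 29 were lower and 10 higher in females and 31 and 9 in males, with medians of -0.035 and -0.037 and Mrps22 at -0.26 and -0.29. Of 34 genes with proteasome subunit names, 12 were lower and 6 higher in females and 9 and 11 in males.

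Markers of other cells moved with age as well. Of 13 macrophage markers, 10 were lower in females and 12 in males, with medians of -0.20 and -0.30. Their mean level per mouse ran from 8.67 to 9.87 in 5-week and from 8.32 to 9.53 in 12-week females, and from 8.63 to 9.54 and 8.14 to 9.50 in males. Of 4 cell cycle markers 3 were lower in each sex and 1 was higher in males. Of 11 hepatocyte markers 6 were lower and 1 (females) or 2 (males) higher. Lower calls in females and males were 3 and 4 of 5 for cholangiocyte and 3 and 3 of 6 for stellate markers. They were 2 and 3 of 5 for neutrophil, 3 and 6 of 10 for lymphocyte and 3 and 2 of 10 for endothelial markers. Higher calls were 1 and 0 for cholangiocyte, 1 and 0 for neutrophil, 1 and 2 for endothelial and 0 for stellate and lymphocyte markers. Over all genes 24.2% were lower and 22.1% higher in females, and 24.0% and 22.3% in males. RMA gives no value of 0, so none of these markers was at 0, and the part of cell composition in the members' age differences was not tested. With group and batch removed, the mean level of the 31 members correlated across the 435 mice at 0.223 with that of the macrophage markers, at 0.244 with the hepatocyte markers, at 0.295 with the 3 erythroid markers, at 0.0971 with the cell cycle markers and at 0.558 with the elongation and TOP genes (Pearson; Spearman 0.236, 0.246, 0.272, 0.0798 and 0.540; 0.215, 0.236, 0.276, 0.0842 and 0.544 without the 2 mice farthest from the median of the marker level).

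Males exceeded females in 10 members at 5 weeks and females exceeded males in 0, against 10.5% of all genes higher in males and 14.4% lower. The median over the members was 0.028, against 0.0025 over all genes, and in batches 1 to 4 it was 0.021, 0.029, 0.027 and 0.068. The largest differences at 5 weeks were those of Rps4l (0.29 ± 0.074), Rpl13a (0.17 ± 0.028), Rplp0 (0.082 ± 0.013), Rpl7l1 (0.065 ± 0.023) and Rps19 (0.064 ± 0.017). At 12 weeks 3 members were higher in males (Rps4l, Rplp0 and Rps27l) and 2 lower (Rps20 and Rps4x), against 8.97% and 9.08% of all genes, which is near the background. Rplp0, the core of the stalk, was 0.062 ± 0.013 higher and Rps27l, a p53-induced copy of Rps27, was 0.043 ± 0.013 higher in 12-week males. Macrophage markers were called lower in males, 5 of 13 at 5 weeks and 12 of 13 at 12 weeks, and 0 were higher. Their part was not tested.

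Rps4l, a copy of the X-linked Rps4x annotated on chromosome 6, had the largest difference between the sexes. Its levels ran from 7.32 to 10.08 (median 8.59) in 5-week females and from 7.67 to 10.02 (median 8.85) in 5-week males, and from 7.27 to 9.98 (median 8.37) and 6.89 to 9.72 (median 8.83) at 12 weeks. The groups overlapped over nearly their whole range. Males were 0.29 ± 0.074 higher at 5 weeks and 0.38 ± 0.075 higher at 12 weeks (adjusted p = 0.000984 and 1.1e-05), and the difference was above 0 in each of batches 1 to 4, from 0.19 to 0.37 and from 0.22 to 0.44. Its parent gene Rps4x was not called at 5 weeks and was lower in males at 12 weeks (-0.040 ± 0.011).

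Rps4l and Rps3, which binds messenger RNA at the entry channel, also differed most from mouse to mouse within a group. The residual SD, after group and batch were removed, was 0.542 for Rps4l and 0.482 for Rps3, and 57 and 128 of the 13379 genes had a larger one. The median was 0.143 over the members and 0.174 over all genes, and next came Rpl22l1 at 0.301, Rpl12 at 0.233 and Rpl41 at 0.214. At the other end, Rpl4 (0.0746), Rps4x (0.0787), Rpl6 and Rpl8 (0.0791 each) were among the least variable genes, with 13318 to 13337 genes above them. Rps3 ran from 4.65 to 6.82 in 5-week females, 4.80 to 6.75 in 12-week females, 4.69 to 7.01 in 5-week males and 4.76 to 6.95 in 12-week males, with medians of 5.93, 5.93, 6.01 and 6.00. Of the 435 mice, 41 fell in the bin from 5.25 to 5.50, 35 in that from 5.50 to 5.75 and 111 in that from 5.75 to 6.00. The next bins held 91 (6.00 to 6.25), 58 (6.25 to 6.50) and 40 (6.50 to 6.75). Whether the levels form separate classes was not tested. Over all mice, Rps3 was called in none of the group comparisons, trait slopes or slope differences. In 12-week males alone it was lower with triglycerides (-0.15 ± 0.045, adjusted p = 0.0175), and the difference between the sexes in that slope was not called (adjusted p = 0.246). Its wide spread gave wide intervals, such as -0.13 to 0.12 for the age difference in females. Genotypes were not analysed here. The levels of Rps3 and Rps4l were unrelated across mice (r = 0.0079).

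**Figure D3:**
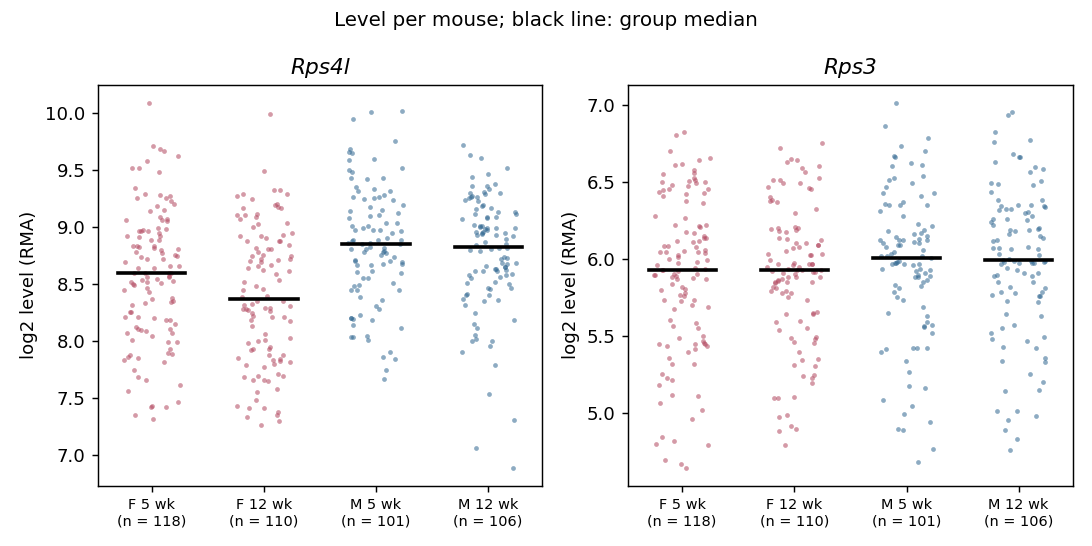
Log2 level of Rps4l (left) and Rps3 (right) in each mouse by sex and age; each point is a mouse and black lines are group medians. Points cover wide ranges in every group, from 7.27 to 9.98 for Rps4l and from 4.80 to 6.75 for Rps3 in 12-week females, and male medians of Rps4l (8.85 and 8.83) lie above female ones (8.59 and 8.37).

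The members rose and fell together only loosely. With group and batch removed, the median correlation over all pairs of members was 0.0978, with 74.6% of pairs above 0, against -0.0036 and 48.7% over all pairs of genes. It was 0.0763 for mitochondrial ribosomal proteins and 0.0598 for proteasome genes, and between 0.0807 and 0.123 within each of the 4 groups. Behind this lay members that moved with the rest and members that did not. The correlation with the mean of the other members was 0.685 for Rps19, 0.642 for Rpl19, 0.631 for Rpl4, 0.624 for Rpl11 and 0.597 for Rps4x, and it was over 0.4 for 15 members. It was under 0.3 for the other 16, lowest for Rps6 (-0.0997), Rpl35 (-0.053), Rps2 (0.00583), Rps10 (0.0346) and Rpl12 (0.0541). The closest pairs were Rpl11 and Rps14 (0.835), Rpl11 and Rpl19 (0.818) and Rps15 and Rps19 (0.729), and the pair farthest below 0 was Rpl22l1 and Rpl7l1 (-0.214). Probe sets with shared probes were on both lists. Rps6 and Rpl35, the members in the lowest 25% of mean levels, were both under 0.3. So were Rpl12, Rpl41, Rps10, Rps25 and Rps3, with group medians from 4.71 to 6.01, and the bright Rps2, Rplp2 and Rps27l. These values therefore describe the arrays as well as the genes.

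In 12-week mice, 17 of 31 members were called lower with more plasma glucose and 18 with more triglycerides, and 15 were called higher with more insulin. A slope here is the log2 change per 1 SD of the trait within a sex, with batch as a covariate. In 12-week mice 1 SD was a 1.49-fold step of glucose in females and 1.37-fold in males, a 2.01-fold and 1.96-fold step of triglycerides and a 2.13-fold and 2.32-fold step of insulin. Median glucose at that age was 460 mg/dl in females and 600 in males, with ranges of 149 to 814 and 157 to 1060. The traits were related within mice, so the slopes are not independent of each other: at 12 weeks glucose correlated with triglycerides at 0.563 (Spearman 0.583, and 0.540 without the 2 mice farthest from the median) and with insulin at -0.461 (-0.587 and -0.502).

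On glucose, 17 of 31 members were called lower and 0 higher at 12 weeks, where 5.50% of all genes were called lower and 7.41% higher. The median slope over the members was -0.025, against -0.00059 over all genes, and 29 of 31 slopes were below 0. The median was -0.039, -0.030, -0.035 and -0.023 in batches 1 to 4. The steepest slopes were those of Rps4l (-0.12 ± 0.037), Rpl22l1 (-0.11 ± 0.017), Rpl22 (-0.10 ± 0.013), Rps19 (-0.059 ± 0.0088) and Rps20 (-0.056 ± 0.0081). Rps4x, Rps15, Rps24, Rps7 and Rpl11 followed at -0.039 to -0.055, and Rpl12 (0.033 ± 0.015), Rps6 (0.0032 ± 0.012) and Rps2 (-0.0021 ± 0.0086) were not called. With insulin as a further covariate 15 members were called lower, and in females alone 14 and in males alone 9. Macrophage markers were called in 0 of 13 at this slope and hepatocyte markers in 3 of 11, 2 higher and 1 lower. Lower calls were 2 of 10 for lymphocyte and 1 each for neutrophil, erythroid, endothelial and cholangiocyte markers. Of the endothelial markers 1 was higher. The part of these markers was not tested.

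On triglycerides, 18 members were called lower and 0 higher at 12 weeks, against 8.93% of all genes lower and 10.7% higher. The median slope was -0.029, against 0.00054 over all genes, and it was -0.033, -0.031, -0.031 and -0.027 in batches 1 to 4. Rpl22 had the smallest adjusted p among the members, with a slope of -0.11 ± 0.012 (1.7e-14), followed by Rps20 at -0.064 ± 0.0078 (4.84e-12) and Rps19 at -0.066 ± 0.0086 (4.9e-11). Rps4l (-0.12 ± 0.037), Rpl22l1 (-0.11 ± 0.017) and Rps7 (-0.070 ± 0.010) were lower as well. Calls were shared: 16 members were lower on both glucose and triglycerides, Rplp2 was lower on glucose without a call on triglycerides, and Rpl39 and Rpl41 the reverse. On triglycerides 1 of 13 macrophage markers was lower and 0 higher, and of 11 hepatocyte markers 2 were lower and 1 higher. Their part was not tested. In females alone 17 members were called and in males alone 12. Fitted alone, batch 2 (95 mice) called 12 members lower with glucose and 14 with triglycerides. Batch 3 (50 mice) called 3 with each, and batches 1 and 4 (28 and 41 mice) called 0. Without batch 2 the counts were 14 and 15. The slopes on 5 traits were compared between the sexes, and on triglycerides they differed for 1 of 31 members, Rps4x, which had -0.060 ± 0.0083 in females and -0.020 ± 0.0082 in males (difference 0.043 ± 0.011, adjusted p = 0.0244). For the counts by sex, in a batch alone, with a batch left out or with a further covariate, the share over all genes is not given. The same holds for the tests between the sexes, here and on the other traits. These counts can therefore not be set against a background.

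**Figure D4:**
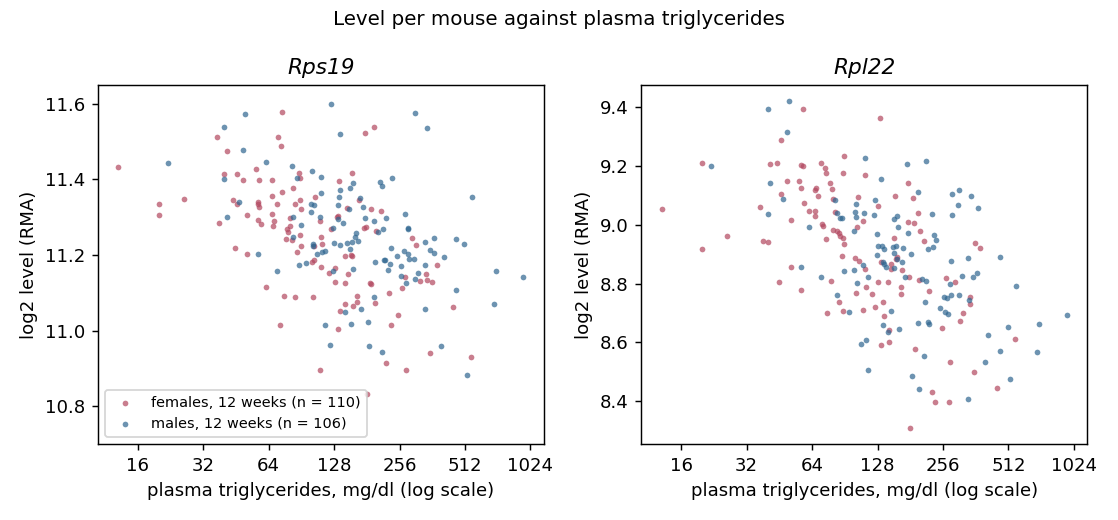
Log2 level of Rps19 (left) and Rpl22 (right) against plasma triglycerides (log axis, mg/dl) in the 110 females (red) and 106 males (blue) at 12 weeks; each point is a mouse. Levels fall from left to right in both sexes, with slopes of -0.066 for Rps19 and -0.11 for Rpl22 per 1 SD.

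On insulin, 15 members were called higher and 0 lower at 12 weeks, where 13.4% of all genes were higher and 14.1% lower. The median slope was 0.022, against 0.0017 over all genes, and 4 of 31 slopes were below 0. Rpl22l1 (0.10 ± 0.018), Rps4l (0.10 ± 0.037), Rpl22 (0.076 ± 0.014), Rps20 (0.049 ± 0.0083) and Rps24 (0.045 ± 0.0088) had the steepest slopes. Of the 15, 13 were also called lower on both glucose and triglycerides: Rpl4, Rpl11, Rpl19, Rpl22, Rpl22l1, Rps4l, Rps4x, Rps7, Rps14, Rps15, Rps19, Rps20 and Rps24. With glucose as a covariate 7 members were called higher and Rps25 lower, and without batch 2, which held the most mice, 4 were called (Rpl22, Rpl7l1, Rps20 and Rps4x, all among the 15). In females alone 14 were called higher and Rps6 lower, and in males alone 0 were called either way, while the test of the difference between the sexes called 0 of 31. In batches 1 to 4 the median slope was 0.033, 0.029, 0.012 and 0.017. Of 13 macrophage markers 5 were higher and 1 lower with insulin, and 3 of 5 neutrophil markers were higher, and their part in the members' slopes was not tested.

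**Figure D5:**
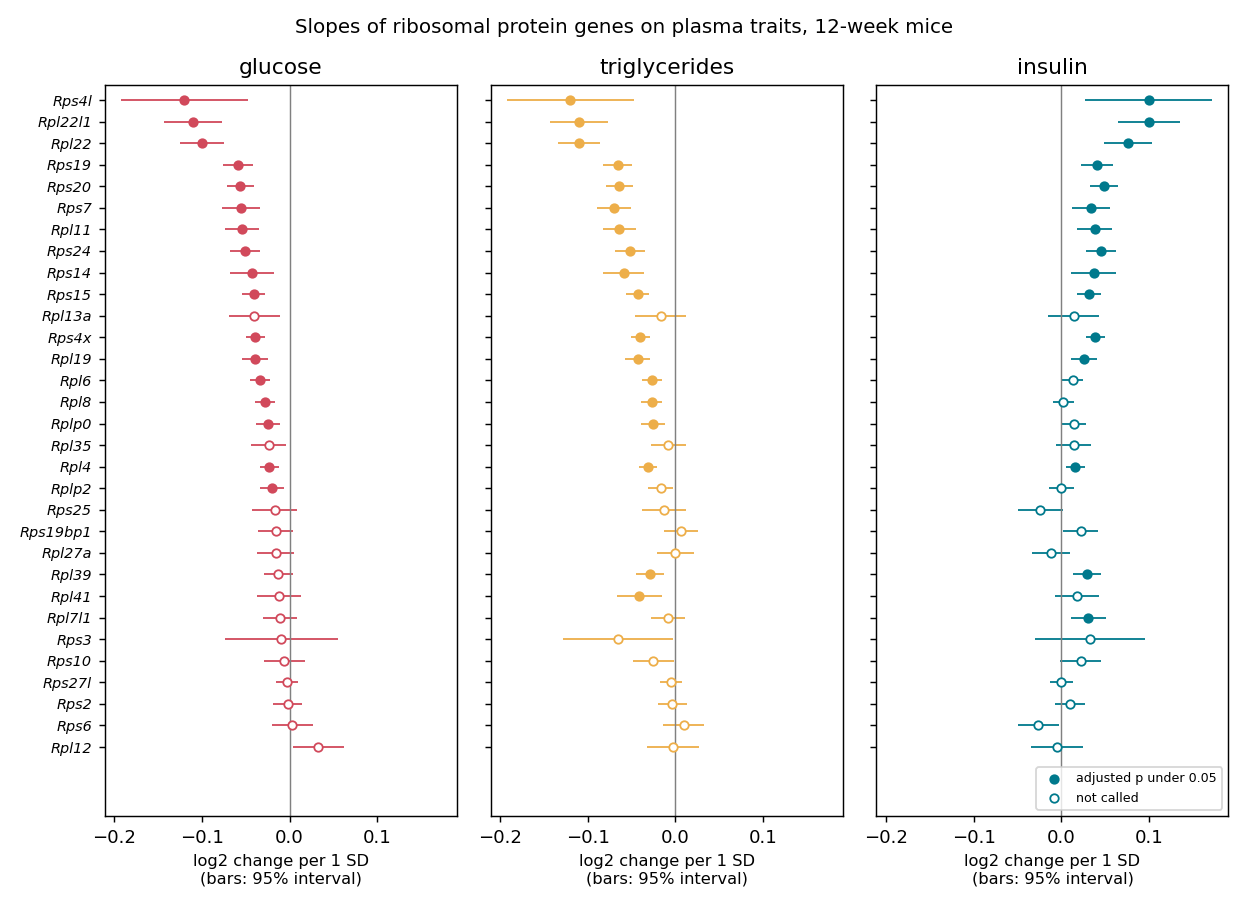
Log2 change of each member per 1 SD of plasma glucose, triglycerides and insulin in 12-week mice, members ordered by the glucose slope; bars are 95% intervals of the limma fit, filled points are called at an adjusted p under 0.05. Called members are all left of 0 for glucose (17) and triglycerides (18) and all right of 0 for insulin (15).

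Of the 11 elongation and other TOP genes, 7 were called lower with glucose and 7 with triglycerides at 12 weeks, 1 higher with each, and 5 higher with insulin. Of 70 biogenesis genes 6 were lower and 3 higher with glucose and 15 lower and 3 higher with triglycerides. Of 23 initiation factors 3 were lower and 0 higher with glucose and 5 lower and 1 higher with triglycerides. Of 71 mitochondrial ribosomal proteins 7 were lower and 4 higher with glucose, and 8 each way with triglycerides. Whether these lists differ from the members was not tested.

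At 5 weeks, when the median glucose was 224 mg/dl in females and 240 in males, 6 members followed it. They were called lower (Rpl8, Rpl22l1, Rps4x, Rps7, Rps20 and Rps24), and 0 were higher, against 3.61% and 4.51% of all genes. On this slope 4 of 11 hepatocyte and 3 of 13 macrophage markers were lower and 0 higher, with 12 of the 13 macrophage values below 0, and their part was not tested. The slope of Rpl22l1 was -0.16 ± 0.020 (adjusted p = 1.29e-09), while that of Rpl22 was -0.0092 ± 0.012 and not called. With triglycerides 8 were lower and 2 higher (Rpl7l1 and Rps27l), against 5.39% and 9.16% of all genes, with Rpl22l1 at -0.15 ± 0.020 and Rpl7l1 at 0.063 ± 0.012. With insulin 0 were higher and 1, Rps2, was lower (-0.027 ± 0.0074), against 1.02% and 1.43% of all genes. That call was lost with no batch term, with the plate code and without any 1 of batches 1 to 4.

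The change of slope between ages was tested for glucose and insulin, with each slope per 1 SD at its own age. For insulin 1 SD was a 1.56-fold step in females and 1.63-fold in males at 5 weeks, against 2.13-fold and 2.32-fold at 12 weeks. For glucose it was 1.41-fold and 1.40-fold against 1.49-fold and 1.37-fold. The part of these unlike steps in the changes of slope was not tested. On glucose it was called lower in 6 members and higher in 0, against 3.30% and 3.29% of all genes: Rpl22 (-0.091 ± 0.017), Rps19 (-0.050 ± 0.011), Rpl11 (-0.040 ± 0.013), Rplp0 (-0.032 ± 0.0095), Rpl19 (-0.029 ± 0.0098) and Rps15 (-0.028 ± 0.0086). The 6 came to 3 without batch 1, 2 or 3 and with the plate code, and to 10 with no batch term. For Rpl22l1 the change was 0.054 ± 0.027 and not called (adjusted p = 0.25). On insulin it was called higher in 11 members and lower in 0, against 6.96% and 6.27% of all genes, largest for Rpl22l1 (0.14 ± 0.029), Rpl22 (0.070 ± 0.018), Rps19 (0.054 ± 0.012), Rps24 (0.053 ± 0.012) and Rps20 (0.051 ± 0.011). Without batch 2 it was called in 2 of these 11, Rps19 and Rps4x.

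For fat stores, at 12 weeks 7 members were higher and 1 lower (Rpl27a) with the liver fat fraction, against 13.0% of all genes each way, with Rpl22 (0.061 ± 0.014), Rps19 (0.041 ± 0.0093), Rpl7l1 (0.039 ± 0.0099) and Rpl11 (0.029 ± 0.010) among the higher. At 5 weeks 5 were lower (Rps7, Rpl22, Rps14, Rps24 and Rps20) and 0 higher, against 2.54% and 3.06%, with Rpl22 and Rps20 in both lists. The 5 calls came to 0 without batch 1 and to 1 (Rps7) without batch 3, the 12-week slope of Rpl22 was -0.02 in batch 1 alone, and the difference of the slopes between ages was not tested. With body fat percent 8 members were lower and 2 higher at 5 weeks, against 5.52% and 8.25%, with Rpl22l1 (-0.17 ± 0.019), Rpl13a (-0.052 ± 0.013) and Rps24 (-0.034 ± 0.0080) the lowest and Rpl22 (0.038 ± 0.011) and Rpl7l1 (0.035 ± 0.012) the higher. At 12 weeks 5 were lower (Rps14, Rps19, Rps24, Rpl19 and Rpl39) and 0 higher, against 2.86% and 3.88%, with slopes between -0.038 and -0.025. These calls came to 0 without batch 2, without batch 4 and in males alone, and to 7 in females alone. Of 13 macrophage markers 5 were lower on this slope and all 13 were below 0 (median -0.054), and their part was not tested.

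The age difference itself differed between the sexes for 3 members, in each of which the difference was further below 0 in males, and for 0 the other way, against 2.82% of all genes called lower and 5.74% higher. The interaction was -0.15 ± 0.040 for Rpl13a, -0.047 ± 0.016 for Rpl6 and -0.047 ± 0.016 for Rps4x, with adjusted p from limma of 0.00548, 0.0423 and 0.0406. Without batch 4, 0 members were called.

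The sex labels were checked against X-linked genes. By Eif2s3x, 8 arrays lay nearer to the other sex than to the labelled one, and by the mean of Kdm5c, Kdm6a and Ddx3x 74 did, among them the same 8 (3 and 2 of the 5-week females and males, 2 and 1 of the 12-week). All arrays were kept. Without the 8, the members' counts were as above for the age differences, for the sex difference at 5 weeks and for the 12-week slopes on glucose, triglycerides and insulin. Array medians lay between 5.56 and 5.70, and no detection calls were used, so signal over background is unknown.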

How the data were processed

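Liver RNA of 435 mice was measured on 1-colour Affymetrix arrays, and the deposited table holds log2 values that the authors made with RMA, per the submitters' processing notes (version not given in the sources used here). Of 15397 probe sets, 13516 carried 1 gene symbol, 162 several and 1719 none given. Each of 13379 genes was read by its brightest probe set. Sex, age and traits came from the labels, and the batch (6 codes) and plate (25 codes) from the array names. limma 3.58.1 in R 4.3.3 (lmFit, eBayes) fitted all genes on 4 groups plus batch, or within an age on the scaled trait, sex and batch. Each of 17 comparisons was adjusted separately over all genes (Benjamini-Hochberg), with calls under 0.05. Values after ± are SE, and intervals are the estimate ± 1.96 SE. The procedure was tested on simulated data. Named in the text are called members with the 10 (groups) or 5 (slopes) largest values, the 5 most variable and 5 least correlated members, variant forms, and list genes with the 3 largest age differences each way. Other members are named where a count lists them, after their values were seen. Members and lists were chosen with earlier results of these data known. Alternatives were other batch terms, array centring, dim genes left out, the dimmest probe set of each gene, trend and robust eBayes, rank-based traits and batches alone. Leaving out a batch and splitting slopes by sex were added after seeing the data.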

Additional observations from a re-analysis of the deposited data

Results flagged for a closer look

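Effects that differed between groups, by a test of the difference itself, are given here as values of all members called. Between the sexes, the log2 age difference of males minus that of females was -0.15 for Rpl13a, -0.047 for Rpl6 and -0.047 for Rps4x. The triglyceride slope at 12 weeks of males minus that of females was 0.043 for Rps4x.

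Between ages, the glucose slope at 12 weeks minus that at 5 weeks was -0.091 for Rpl22, -0.05 for Rps19, -0.04 for Rpl11, -0.032 for Rplp0, -0.029 for Rpl19 and -0.028 for Rps15. The insulin slope at 12 weeks minus that at 5 weeks was 0.14 for Rpl22l1, 0.07 for Rpl22, 0.054 for Rps19, 0.053 for Rps24, 0.051 for Rps20, 0.046 for Rps4x, 0.039 for Rps15, 0.037 for Rpl11, 0.033 for Rps2, 0.032 for Rplp0 and 0.028 for Rpl19. Every member called for glucose was also called for insulin. Each slope is per 1 SD of the trait at its own age, and for insulin that step was larger at 12 weeks.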

How the results depend on the processing

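Counts of called members are given here where an alternative moved them by over 1.5 times, and the cause was not tested unless stated. The share over all genes under each alternative is not given, so these counts cannot be set against a background. Batches alone hold 86 to 138 arrays, and fewer samples were then fitted. For the slopes, batches 1 to 4 alone held 71, 43, 60 and 45 mice at 5 weeks. At 12 weeks they held 28, 95, 50 and 41, with 94 in batch 2 for liver fat. In batch 1 alone, the age comparison called 1 member higher and 9 lower in females and 0 and 8 in males, the body fat slope at 5 weeks 0 higher and 1 lower, 2 were higher and 0 lower with triglycerides at 5 weeks, and 0 members were called in the sex differences, the interaction, the other slopes and both slope differences. In batch 2 alone, 0 were higher with age in either sex, 1 was higher in 5-week and 0 lower in 12-week males, 1 was lower with body fat at 5 weeks, and the interaction, the other 5-week slopes, both slope differences and the members lower with liver fat or body fat at 12 weeks came to 0. In batch 3 alone, 1 was higher and 9 lower with age in females and 1 and 5 in males, 1 was higher in 5-week males, and the lower counts were 1 for glucose and 5 for triglycerides at 5 weeks and 3 for each at 12 weeks. Body fat at 5 weeks gave 1 higher and 2 lower, and the 12-week sex difference, interaction, insulin, liver fat, 12-week body fat and slope differences gave 0. In batch 4 alone, 7 were higher and 5 lower with age in females (median 0.028), 0 were higher in males, and 4 were higher in 5-week and 0 in 12-week males. There the median interaction was -0.11, the 5-week lower counts were 2 for glucose, 1 for triglycerides and 2 for body fat, and 0 were called in the 12-week slopes on all 5 traits, with insulin or liver fat at 5 weeks, or in the slope differences.

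With a batch left out, chosen after seeing the data, these counts changed. Without batch 1, 1 was lower in 12-week males, 1 higher with triglycerides and 1 with body fat at 5 weeks, 0 lower with insulin and with liver fat at 5 weeks, 3 lower with body fat at 12 weeks and 3 in the glucose slope difference. Without batch 2, 1 was higher in 12-week males, 4 higher with insulin and 2 with liver fat at 12 weeks, 0 lower with insulin and 3 with liver fat at 5 weeks, 0 with body fat at 12 weeks, 3 in the glucose and 2 in the insulin slope difference. Without batch 3, 1 was higher with age in males, 1 lower in 12-week males, 1 higher with glucose at 5 weeks, 3 lower with triglycerides, 0 with insulin, 1 with liver fat and 5 with body fat at 5 weeks (0 higher), 1 higher and 2 lower with body fat at 12 weeks and 3 in the glucose slope difference. Without batch 4, 1 was higher with age in males, and 0 were lower in 12-week males, in the interaction, with insulin at 5 weeks, and with liver fat or body fat at 12 weeks. There 3 were lower with liver fat and 0 higher with body fat at 5 weeks.

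With no batch term, 1 was lower in 12-week males, 1 in the interaction and 0 with insulin at 5 weeks, 2 were higher with glucose at 5 weeks and 1 with body fat at 12 weeks, and the glucose slope difference called 1 higher and 10 lower. With the plate code, 0 were lower with insulin and 1 higher with body fat at 5 weeks, 1 higher with body fat at 12 weeks and 3 lower in the glucose slope difference. With arrays centred, 1 was lower in 12-week males and body fat at 12 weeks called 1 higher and 3 lower. Without the 8 arrays nearer to the other sex, 3 were lower with liver fat at 5 weeks and body fat at 12 weeks called 1 higher and 3 lower. Body fat at 12 weeks also called 2 higher without dim genes and 1 with the trend and robust variance model. With glucose as a covariate, insulin at 12 weeks called 7 higher and 1 lower. In females alone 1 was lower with insulin, and liver fat called 3 higher and 0 lower at 12 weeks. In males alone 9 were lower with glucose, 0 higher with insulin, 3 higher with liver fat and 0 lower with body fat.

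Of the values of named members under all alternatives, 1089 kept their side of the threshold, 418 lost the call and 9 changed sign. The 1089 include 94 from the alternative that read each gene by its dimmest probe set, in which no member's level could change. The 9 were Rps4l with age in females (0.025) and Rpl22l1 with insulin at 12 weeks (-0.012) in batch 4 alone, Rps4l with insulin in males alone (-0.014), Rpl4 in the 5-week sex difference (-0.0056), Rpl6 in the interaction (0.016) and Rpl22 (-0.02) and Rps19 (-0.0022) with liver fat at 12 weeks in batch 1 alone, and Rpl13a in the interaction (0.0016) and Rpl39 with body fat at 12 weeks (0.0021) in batch 3 alone. Each member has 1 probe set annotated to it alone, so another choice among such probe sets changed no member's level. A further probe set annotated to both Rpl13a and Flt3l was left out and its values were not compared. No paired analysis was possible because mouse numbers are not shared between groups.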
